A study of Homo sapiens with 12 samples.

Results

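Lamins and inner nuclear membrane proteins were followed from mRNA to ribosome occupancy in IMR90 cells, a well-established human lung fibroblast line, as these passed from proliferation into replicative senescence. The genes were chosen as a list of symbols, by a rule that uses no measured value but was written with earlier results of these data known: *LMNA*, *LMNB1*, *LMNB2*, *LBR*, *EMD*, *TMPO*, *LEMD3*, *SUN1*, *SUN2* and *BANF1*. They are 10 of the 38716 gene symbols in the tables, and 10 of the 16451 symbols with at least 1 read in the coding sequence (CDS) of some library. All 10 passed the filter on low counts in every comparison. *LMNB2* is also a gene that the study singled out from these same libraries, so its values here are not independent evidence of its direction.

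A pair of states was compared, with 3 lysates in each. Proliferating cells (Pro) were still dividing, and senescent cells (Sen) had been passaged without interruption until they stopped dividing. Both were grown in MEM with serum and non-essential amino acids and were harvested in a buffer that holds ribosomes in place with cycloheximide. Each lysate gave 1 Ribo-seq library, made from the stretches of mRNA that ribosomes shield from RNase, and 1 RNA-seq library of poly(A)-enriched RNA, so there were 12 libraries. The protocol names a pair of isolates of the line without saying which lysate came from which, and state and isolate therefore cannot be told apart. RNA-seq file names of Pro cells carry a tag resembling DMSO, a solvent that no label mentions.

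The nuclear lamina is a mesh of intermediate filament proteins that lines the inner face of the nuclear envelope and anchors heterochromatin. A-type lamins come from *LMNA* by splicing and are typical of differentiated cells, whereas the B-type lamins come from separate genes, *LMNB1* and *LMNB2*, and keep a farnesyl tail that holds them at the membrane. Inner nuclear membrane proteins bind this mesh and, through it, chromatin: LBR binds B-type lamins and heterochromatin protein 1 and also carries a sterol reductase domain, the LEM-domain proteins emerin (*EMD*), LAP2 (*TMPO*) and MAN1 (*LEMD3*) bind the small DNA-binding protein BAF (*BANF1*), and SUN1 and SUN2 join the lamina to the cytoskeleton through nesprins. Loss of lamin B1 is a widely used marker of senescence.

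Messenger RNA levels are sums of the 5′ UTR, CDS and 3′ UTR reads of a gene in an RNA-seq library, and ribosome-protected fragments (RPF) are those that fell in its CDS in Ribo-seq. Both are given as CPM, counts brought to a common library size with TMM factors. Translational efficiency (TE) is the log2 ratio of RPF to mRNA in the same lysate, with 0.5 added to each count in values per lysate. A change was called at a Benjamini-Hochberg adjusted p under 0.15 (the false discovery rate of 15% of the published methods) in edgeR's two-sided quasi-likelihood test, with p adjusted over all genes tested. Fold changes are log2 ratios of Sen to Pro with the standard error (SE), and levels carry the SD over 3 lysates.

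Between 7902427 and 14144455 reads of an RNA-seq library fell in mRNA regions. Ribo-seq depth was far lower and varied, with 54421 CDS reads in Pro 1 and 54708 in Sen 2 against 583798 to 1718521 in the other 4. A floor of 3 counts stood at 55.1 CPM in Pro 1 and 54.8 CPM in Sen 2, and at 5.14 CPM or less in the other 4, on library totals and for counting error only. These 2 lysates also had the lowest share of assigned Ribo-seq reads in the CDS (34.4% in Pro 1 and 15.0% in Sen 2, against 54.7% to 88.8%), so RPF and TE results below are also given without them where this changes a call, and for the genes called. Shallow libraries carry little weight in the fitted changes, and the unweighted means of 3 lysates can differ from these in sign, as is said where it occurs. Fibroblast markers summed to 27723 to 34583 CPM in every RNA-seq library. Epithelial markers (4 of them measured) summed to at most 1.71 CPM and endothelial markers to at most 1.11 CPM, with *CDH5* at 0 throughout. Leukocyte markers summed to 19.3 to 21.5 CPM in Pro and 32.6 to 35.5 CPM in Sen, nearly all of it *CD68*, with *PTPRC* at 0.17 CPM or less. Smooth muscle markers summed to 354 to 389 CPM in Pro and 416 to 479 CPM in Sen, and the part of these markers in the results below was not tested. As a check of the state labels, the cell cycle inhibitor *CDKN1A* was measured (490 to 512 CPM in Pro, 1462 to 1581 CPM in Sen) and so was the proliferation antigen *MKI67* (148 to 152 CPM and 28.2 to 32.1 CPM). In bulk libraries such as these, fewer cells carrying a transcript and less of it per cell cannot be told apart.

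Promoters are printed for the 4 genes whose mRNA fell by more than 1 on the log2 scale (values below), because these moved together. Each is the 250 bases before the RefSeq gene start, read 5′ to 3′ on the gene's strand in GRCh38.p14, a newer build than that of the gene coordinates given further on. RefSeq held a promoter for 9 of the 10 genes, with no entry for *SUN1*. Capitals mark CCAAT on either strand (the CCAAT box, where ATTGG is its reverse) and TTTGAA on either strand, the letters of the cell cycle genes homology region. The positions are chr5:126776886-126777135 (+ strand) for *LMNB1*, chr19:2456960-2457209 (- strand) for *LMNB2*, chr12:98515340-98515589 (+ strand) for *TMPO* and chr1:225428822-225429071 (- strand) for *LBR*.
LMNB1 promoter: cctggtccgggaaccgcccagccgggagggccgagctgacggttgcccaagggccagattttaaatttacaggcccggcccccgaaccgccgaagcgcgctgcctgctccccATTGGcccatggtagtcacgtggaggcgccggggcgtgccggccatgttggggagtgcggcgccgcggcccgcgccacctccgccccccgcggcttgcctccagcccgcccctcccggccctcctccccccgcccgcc
LMNB2 promoter: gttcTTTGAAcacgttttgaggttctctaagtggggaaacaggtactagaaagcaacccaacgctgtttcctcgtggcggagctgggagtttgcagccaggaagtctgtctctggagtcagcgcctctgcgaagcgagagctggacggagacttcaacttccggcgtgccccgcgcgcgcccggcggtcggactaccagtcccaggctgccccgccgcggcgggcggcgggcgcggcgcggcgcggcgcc
TMPO promoter: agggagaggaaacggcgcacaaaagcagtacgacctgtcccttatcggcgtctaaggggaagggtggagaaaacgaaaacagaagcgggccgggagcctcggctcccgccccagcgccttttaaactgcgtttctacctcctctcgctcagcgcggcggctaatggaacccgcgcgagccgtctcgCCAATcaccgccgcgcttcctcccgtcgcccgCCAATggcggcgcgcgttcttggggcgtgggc
LBR promoter: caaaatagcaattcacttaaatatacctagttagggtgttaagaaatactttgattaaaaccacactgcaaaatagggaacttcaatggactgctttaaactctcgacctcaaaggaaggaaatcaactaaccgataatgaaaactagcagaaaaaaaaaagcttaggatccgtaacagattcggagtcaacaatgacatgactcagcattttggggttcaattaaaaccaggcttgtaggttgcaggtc
The *TMPO* promoter held CCAAT 64 and 32 bases before the start and the *LMNB1* promoter held it once on the opposite strand, 138 bases before the start. CCAAT was also found before *EMD* and *LEMD3*, that is in 4 of 9 promoters, where 32% of all 35114 RefSeq promoters of this length hold it. TTTGAA was found before *LMNB2* alone (13.3% of all promoters), at 246 bases from the start. Neither was found before *LBR*, *LMNA* or *SUN2*. TTCCCGC, a form of the E2F site, was found before *LEMD3* and *BANF1* (5.52% of all promoters), and TTGGCGC, another form, before none (2.56%). These are matches of letters in a short window and do not show that a factor binds.

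At the mRNA level, 9 of the 10 genes changed, 8 of them downwards and *LEMD3* upwards, and *SUN2* did not pass the threshold. Changes were common among all genes tested: 73.6% of 12787 genes changed, 36.6% upwards and 37.0% downwards. The median log2 fold change of the 10 genes was -0.44, against -0.01 over all genes tested. Pro and Sen lysates did not overlap for 7 of the 10 genes, all lower in Sen, where 67.8% of all genes tested did not overlap in either direction. Scaling to library totals in place of TMM factors shifted the median of all genes to -0.11 (mRNA) and -0.14 (RPF). Fold changes below rest on TMM factors unless another scaling is named.

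In RPF, 3 of the 10 genes changed (*LMNB1*, *TMPO* and *LBR*), all downwards. Over all 7521 genes tested, 54.4% changed, 26.9% of the tested genes downwards, so 3 of 10 downwards is close to the share among genes at large. In TE, 1 of the 10 genes changed, *LMNB2*, which was higher in Sen. Of 7473 genes tested in TE, 9.37% changed, 4.88% upwards. The median TE log2 fold change was 0.15 over the 10 genes and -0.01 over all genes tested.

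**Figure D1:**
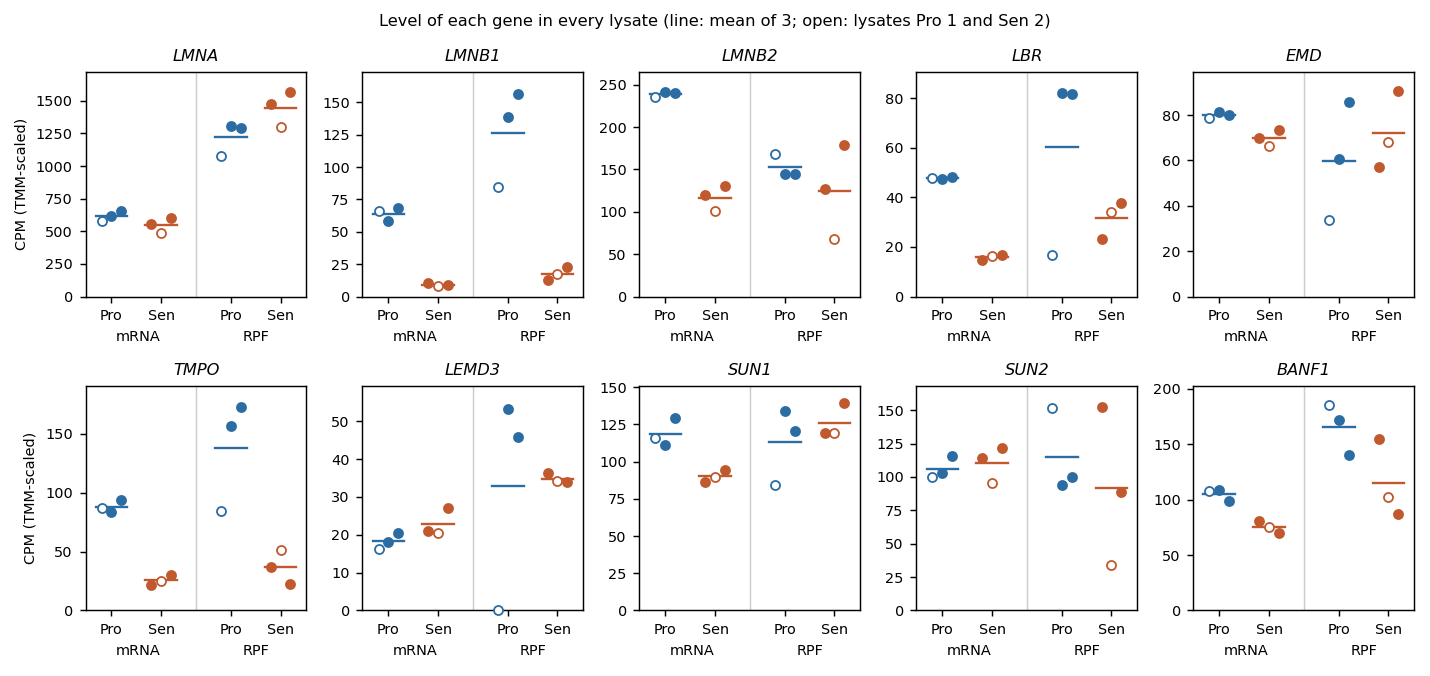
Level of each of the 10 genes in mRNA and RPF, in CPM on a linear axis from 0, with 1 point per lysate, a line at the mean of 3, and open points for the shallow lysates Pro 1 and Sen 2. Senescent mRNA points of *LMNB1*, *LMNB2*, *LBR* and *TMPO* lie far below the proliferating ones, and RPF points of *LMNB2* overlap between the states.

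**Figure D2:**
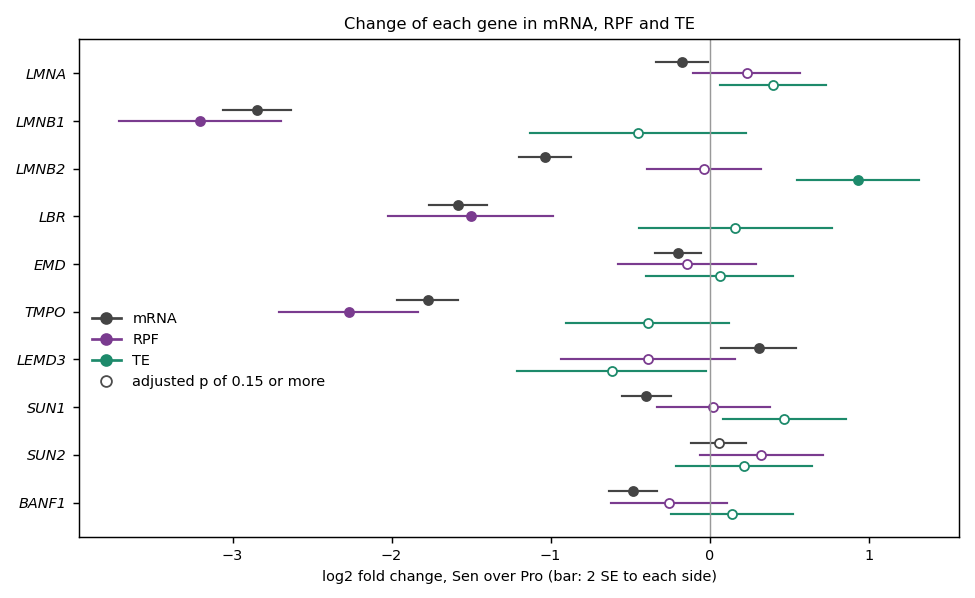
Log2 fold change (Sen over Pro) of each gene in mRNA, RPF and TE, with bars of 2 SE to each side and filled points where the adjusted p was under 0.15. *LMNB2* is the gene with a filled TE point, at 0.93.

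*LMNA*, which encodes lamins A and C, was the most highly expressed of the lamins. It lies on chromosome 1 (156052364 to 156109872, + strand, GRCh37 as are all gene positions below). Its mRNA stood at 582, 617 and 653 CPM in Pro 1, 2 and 3 and at 555, 484 and 603 CPM in Sen 1, 2 and 3. The Sen lysates were lower on average, but Sen 3 fell inside the Pro range. The fall of 0.17 ± 0.08 on the log2 scale passed the threshold (adjusted p = 0.0637, edgeR) and no longer did so without Pro 3 (-0.13, adjusted p = 0.204) or without Sen 2 (-0.10, adjusted p = 0.262). Its RPF stood at 1078, 1308 and 1290 CPM in Pro and at 1475, 1296 and 1570 CPM in Sen, with the Sen 2 value inside the Pro range. The RPF change of 0.23 ± 0.17 did not pass in the test of all lysates (adjusted p = 0.268) and passed without the shallow lysates at nearly the same size (0.23, adjusted p = 0.0836).

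*LMNB1* (chromosome 5, 126112315 to 126172712, + strand) had the steepest fall of the 10 in both layers. Its mRNA stood at 65.7, 58.0 and 68.3 CPM in Pro and at 10.1, 7.83 and 9.04 CPM in Sen. Every Sen lysate was far under every Pro lysate. The mRNA log2 fold change was -2.84 ± 0.11, which is 7.18-fold lower (adjusted p = 1.3e-15, edgeR). RPF stood at 84.2, 138 and 156 CPM in Pro and at 13.0, 17.1 and 22.6 CPM in Sen, again with no overlap. The lowest Pro value and the middle Sen value come from the shallow libraries and rest on 5 reads and 1 read. RPF fell by 3.20 ± 0.26 on the log2 scale (adjusted p = 4.08e-18), and by 3.24 without the shallow lysates (adjusted p = 2.74e-10). Its TE log2 fold change of -0.45 ± 0.34 did not pass (adjusted p = 0.505), with an interval of 2 SE from -1.13 to 0.23, and it turned to 0.15 without Sen 1 (adjusted p = 0.949). With 0.5 added to each count, the unweighted mean log2 TE went the other way, from 0.98 in Pro to 1.16 in Sen. That rise rests on the added 0.5, which weighs heavily on the 1 read of Sen 2, and is not evidence of a direction.

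*LMNB2* (chromosome 19, 2427636 to 2456957, - strand) fell in mRNA and did not pass in RPF. Its mRNA stood at 235, 241 and 240 CPM in Pro and at 120, 100.4 and 130 CPM in Sen. The Pro lysates had an SD of 3.16 CPM and all exceeded every Sen lysate by a wide margin. Its mRNA fell by 1.04 ± 0.08 on the log2 scale, or 2.05-fold (adjusted p = 3.14e-10, edgeR). RPF stood at 168, 144 and 145 CPM in Pro and at 127, 68.2 and 179 CPM in Sen. Here the states overlapped, with Sen 3 the highest and Sen 2 (4.5 reads) the lowest of all 6. The RPF log2 fold change was -0.04 ± 0.18 (adjusted p = 0.888), with a 2 SE interval from -0.39 to 0.32, so a fall as large as that of its mRNA lies outside the interval.

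Per lysate, the log2 TE of *LMNB2* was -0.41, -0.74 and -0.73 in Pro and 0.10, -0.39 and 0.47 in Sen. With 0.5 added to each count, all Sen lysates were higher, although Pro 1 and Sen 2, the shallow pair, almost touched. From CPM of the rounded counts, with nothing added, Sen 2 (RPF 68.2, mRNA 100.4) lies under Pro 1 (RPF 168, mRNA 235), so the states overlap. That overlap rests on rounding, which took the 9.5 reads of Pro 1 up and the 4.5 reads of Sen 2 down. Unrounded, these reads put Sen 2 just above Pro 1, so the order of this pair is not firm. The TE log2 fold change was 0.93 ± 0.19, a 1.91-fold rise (adjusted p = 0.00103), and 0.98 without the shallow lysates (adjusted p = 0.0012). Leaving out 1 lysate at a time gave 0.79 to 1.10, with adjusted p up to 0.113. DESeq2 (0.84, adjusted p = 0.9999) and voom (0.87, adjusted p = 0.317) gave similar sizes without passing the threshold, and in TE they called 28 and 43 genes in all.

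Base composition moved with TE in these libraries. The GC content of the CDS correlated across genes with the TE log2 fold change at r = 0.52 (7232 genes), with that of RPF at r = 0.43 (7242 genes) and with that of mRNA at r = 0.10 (12145 genes; a description across genes, which are not independent replicates and share the same libraries). *LMNB2* has a CDS of 66.5% GC, at the 93.9 percentile of 15318 genes, and *LMNA* one of 63.4%, at the 86.3 percentile. With trends of GC content and CDS length removed from each library, a setting chosen after the data had been seen, the TE change of *LMNB2* was 0.62 and still passed (adjusted p = 0.0589), and that of *LMNA* was 0.17 (adjusted p = 0.777). The RPF change of *LMNB2* became -0.56 and passed as a fall (adjusted p = 0.00525), so the RPF call of *LMNB2* depends on this step. The same step left the falls of *LMNB1* (mRNA -2.83, RPF -3.20) nearly as they were and made the RPF fall of *LBR* smaller (-1.17). The RPF changes of *EMD* (-0.44, adjusted p = 0.101) and *BANF1* (-0.44, adjusted p = 0.0284) then passed as falls. For *SUN1* the TE change was 0.35 with this step (adjusted p = 0.454).

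*LMNA* and *SUN1* were the other genes whose TE, with 0.5 added to each count, did not overlap between the states. The log2 TE of *LMNA* was 0.90, 1.09 and 0.98 in Pro and 1.41, 1.43 and 1.38 in Sen, a difference of 0.40 ± 0.17 (adjusted p = 0.177, edgeR). For *SUN1* it was -0.33, 0.28 and -0.09 in Pro and 0.47, 0.51 and 0.57 in Sen, a difference of 0.47 ± 0.19 (adjusted p = 0.169). Neither passed the threshold with all lysates, and both did without the shallow lysates (0.37 with adjusted p = 0.0755, and 0.45 with adjusted p = 0.14). For comparison, TE without the added 0.5 did not overlap for 16.4% of all genes tested. On that measure, taken from rounded counts, *LMNA* and *SUN1* stayed apart and *LMNB2* did not. The overlap of *LMNB2* rests on the rounding, as described above, and its unrounded reads put all Sen lysates above all Pro lysates. It therefore does not set *LMNB2* apart from *LMNA* and *SUN1*.

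**Figure D3:**
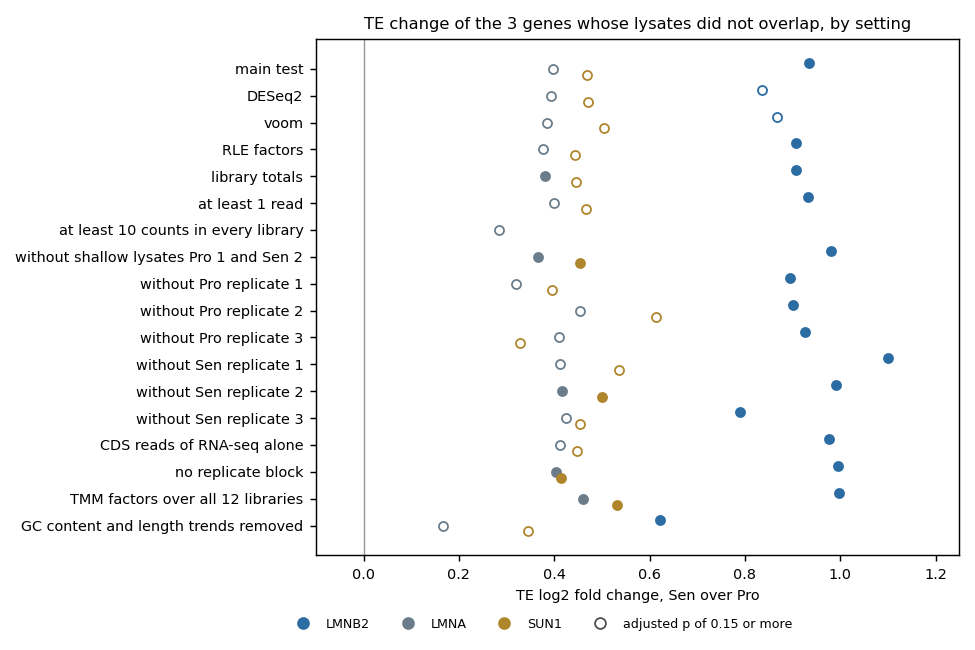
TE log2 fold change (Sen over Pro) of *LMNB2*, *LMNA* and *SUN1* under the main test and each other setting tried, filled where the adjusted p was under 0.15. *LMNB2* stays between 0.62 and 1.10 and is open under DESeq2 and voom alone, and the filter of at least 10 counts in every library kept only *LMNA*.

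How the B-type lamins shifted against each other was read within each library, which needs no scaling between libraries. The log2 ratio of *LMNB1* to *LMNB2* mRNA reads was -1.84, -2.06 and -1.81 in Pro and -3.56, -3.67 and -3.84 in Sen. In RPF it was -0.93, -0.06 and 0.11 in Pro and -3.26, -1.59 and -2.93 in Sen. The states did not overlap in either library type, and the shallow lysates Pro 1 and Sen 2 were the nearest to each other in RPF. The difference in means was -1.79 for mRNA and -2.30 for RPF (two-sided exact permutation test, p = 0.1 for each, the smallest p that 3 against 3 allows). Leaving out 1 lysate at a time moved the RPF difference between -2.80 and -1.97.

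Set per kb of CDS, so that genes of different length can be compared, *LMNA* took 73.9% to 75.8% of the CDS reads of the 3 lamin genes in Pro RNA-seq libraries and 87.6% to 88.5% in Sen. In Ribo-seq its share was 79.5% to 80.8% in Pro and 87.8% to 93.3% in Sen. *LMNB1* went from 8.32% ± 0.69 (SD, n = 3) to 1.49% ± 0.12 in RNA-seq and from 9.21% ± 1.97 to 1.24% ± 0.29 in Ribo-seq. *LMNB2* went from 16.7% ± 0.29 to 10.6% ± 0.51 in RNA-seq without overlap, while in Ribo-seq its shares of 10.8% ± 2.19 and 8.13% ± 2.75 overlapped (two-sided exact permutation test, p = 0.4, against 0.1, the smallest possible, for each of the other shares). Lamin reads of senescent cells were thus made up of *LMNA* to a larger share in both layers. These shares use the CDS of the MANE Select transcript (1992, 1758 and 1860 bases for *LMNA*, *LMNB1* and *LMNB2*), and with all annotated CDS exons of a gene as its length the *LMNA* share in RNA-seq was 69.3% in Pro and 84.5% in Sen.

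**Figure D4:**
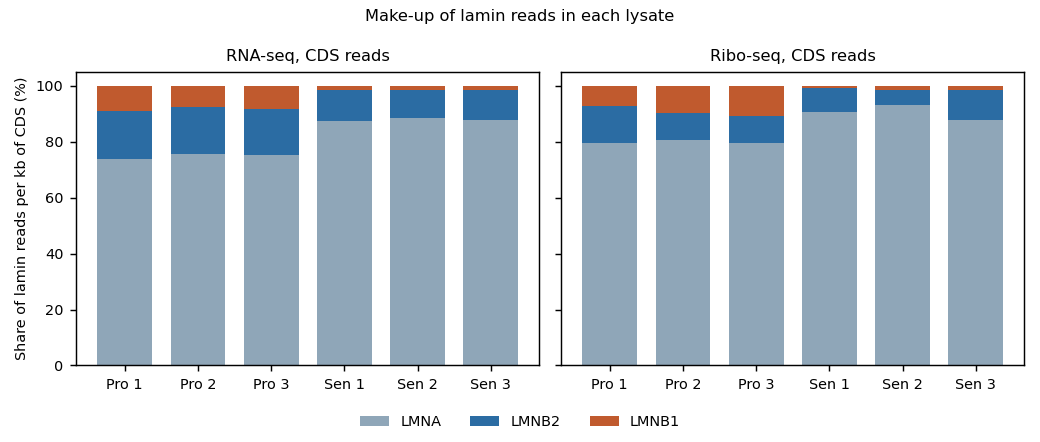
Share of *LMNA*, *LMNB2* and *LMNB1* in the CDS reads per kb of the 3 lamin genes, in percent, 1 stacked bar per lysate, for RNA-seq and Ribo-seq. The *LMNB1* segment is at most 1.60% in Sen lysates of RNA-seq and at least 7.67% in Pro.

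*TMPO*, which encodes the LAP2 proteins, and *LBR* fell together with *LMNB1*. *TMPO* (chromosome 12, 98909357 to 98944129, + strand) had mRNA levels of 86.8, 83.4 and 93.6 CPM in Pro and 21.5, 25.3 and 30.0 CPM in Sen. Its RPF levels were 84.2, 157 and 172 CPM in Pro and 37.1, 51.2 and 22.6 CPM in Sen. No Sen lysate reached a Pro lysate in either layer, but the nearest RPF values, in the shallow Pro 1 and Sen 2, rest on 5 and 3 reads. The log2 fold changes were -1.77 ± 0.10 in mRNA (adjusted p = 6.69e-13, edgeR) and -2.27 ± 0.22 in RPF (adjusted p = 2.14e-14), and RPF stood at -2.33 without the shallow lysates. TE changed by -0.39 ± 0.26 (adjusted p = 0.425), an interval of 2 SE from -0.90 to 0.12. *TMPO* shares 844 bases with the antisense gene *TMPO-AS1*, and GENCODE lists 2 pseudogenes named for it. Whether strand was used, and how reads with several placements were counted, is not given in the sources used here.

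*LBR* (chromosome 1, 225589204 to 225616627, - strand) had mRNA levels of 47.8, 47.6 and 48.1 CPM in Pro and 14.7, 16.2 and 16.9 CPM in Sen. The states were cleanly apart, and mRNA fell by 1.58 ± 0.09 on the log2 scale, or 2.99-fold (adjusted p = 1.3e-12, edgeR). RPF stood at 16.8, 82.1 and 81.6 CPM in Pro and at 23.4, 34.1 and 37.7 CPM in Sen. Here the states overlapped through Pro 1, whose value is a single read and lies under the floor. RPF fell by 1.50 ± 0.26 (adjusted p = 1.62e-06) and by 1.56 without the shallow lysates (adjusted p = 1.38e-05), whereas DESeq2 gave -1.24 with an adjusted p of 0.161. The TE change of 0.16 ± 0.30 did not pass (adjusted p = 0.814).

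Other LEM-domain proteins and their partner had smaller fold changes in mRNA. *EMD*, the emerin gene (chromosome X, 153607633 to 153609934, + strand), had 78.9, 81.4 and 80.1 CPM of mRNA in Pro and 69.9, 66.5 and 73.3 CPM in Sen. The groups were apart but close, with a log2 fold change of -0.20 ± 0.07 (adjusted p = 0.0203). Its RPF (33.7 to 85.6 CPM in Pro, 57.2 to 90.6 CPM in Sen) overlapped broadly, and the fitted change of -0.15 ± 0.22 did not pass (adjusted p = 0.613), while the unweighted means were 59.9 CPM in Pro and 72.0 CPM in Sen. *LEMD3*, whose product MAN1 also binds SMAD proteins, was the gene that rose: 16.2, 18.0 and 20.5 CPM in Pro and 20.9, 20.4 and 26.9 CPM in Sen. The highest Pro value lies just above the lowest Sen value, and the change of 0.31 ± 0.12 (adjusted p = 0.0268) did not pass without Sen 3 (0.16, adjusted p = 0.236). *LEMD3* RPF was 0, 53.3 and 45.7 CPM in Pro and 36.4, 34.1 and 34.0 CPM in Sen, with the 0 in the shallow Pro 1 library, where a count of 0 allows up to 55.1 CPM. Its RPF change of -0.39 ± 0.27 (adjusted p = 0.255) and TE change of -0.62 ± 0.30 (adjusted p = 0.245) did not pass. Without Pro 1 both passed as falls (-0.49 with adjusted p = 0.106, and -0.72 with adjusted p = 0.12), whereas without both shallow lysates neither did (-0.43 with adjusted p = 0.153, and -0.67 with adjusted p = 0.164). With Pro 1 included, the unweighted means went the other way, from 33.0 to 34.8 CPM in RPF and from 0.60 to 0.75 in log2 TE.

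*BANF1* (chromosome 11, 65769699 to 65771620, + strand), the gene of BAF, had mRNA levels of 108, 108 and 98.6 CPM in Pro and 80.4, 75.6 and 69.8 CPM in Sen. All Sen lysates were lower, and the log2 fold change was -0.48 ± 0.08 (adjusted p = 9.48e-06, edgeR), which became -0.22 with CDS reads of RNA-seq alone (adjusted p = 0.0489). RPF stood at 185, 171 and 140 CPM in Pro and at 155, 102 and 86.8 CPM in Sen, overlapping through Sen 1. The RPF change of -0.26 ± 0.18 did not pass (adjusted p = 0.256) and depended on single lysates. It stood at -0.77 without Sen 1 (adjusted p = 0.0233), at -0.29 without Pro 1 (adjusted p = 0.146) and at -0.02 without Sen 3 (adjusted p = 0.943). It also passed with library totals (-0.39, adjusted p = 0.0723) and with the replicate number as a block (-0.58, adjusted p = 0.0909). Removal of GC content and length trends made it pass too, as given above. Without the shallow lysates it did not pass (-0.21, adjusted p = 0.38). GENCODE lists 5 pseudogenes named for *BANF1*, so its counts depend on how reads with several placements were handled.

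Of the SUN proteins, which bridge the nuclear envelope, *SUN1* fell in mRNA and *SUN2* did not pass the threshold. *SUN1* (chromosome 7, 856252 to 936072, + strand) stood at 116, 111 and 129 CPM in Pro and at 86.2, 89.7 and 94.4 CPM in Sen, a fall without overlap of 0.40 ± 0.08 on the log2 scale (adjusted p = 8.97e-05). *SUN2* (chromosome 22, 39129295 to 39190148, - strand) stood between 100 and 116 CPM in Pro and at 114, 95.6 and 122 CPM in Sen. Its change of 0.06 ± 0.09 did not pass (adjusted p = 0.589), with a 2 SE interval from -0.12 to 0.23, and its sign turned with library totals (-0.05) and without Sen 3 (-0.03). Neither gene passed in RPF with all lysates (0.02 ± 0.18 for *SUN1*, adjusted p = 0.932, and 0.32 ± 0.19 for *SUN2*, adjusted p = 0.176). *SUN2* RPF stood at 152, 93.6 and 100.1 CPM in Pro and at 153, 34.1 and 88.7 CPM in Sen. Its values in the shallow Pro 1 and Sen 2 rest on 9 and 2 reads. With these included, its unweighted mean was lower in Sen (91.8 against 115 CPM) while the fitted change was a rise. That rise passed without both shallow lysates (0.42, adjusted p = 0.081), without Pro 1 (0.31, adjusted p = 0.14), without Sen 2 (0.39, adjusted p = 0.0945) and without Sen 3 (0.54, adjusted p = 0.0349), and it turned to -0.26 without Sen 1. Both genes overlap coding neighbours, *SUN1* with *GET4* on the same strand and *SUN2* with *DNAL4* on the same and *GTPBP1* on the opposite strand.

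Levels per kb of CDS placed the 10 genes in an order that changed between the states. In Pro RNA-seq libraries the order from the top was *LMNA* (258 ± 10.6 CPM per kb), *BANF1* (151 ± 20.0), *EMD* (78.3 ± 2.03), *LMNB2* (57.5 ± 1.36), *TMPO* (38.7 ± 1.62), *SUN1* (36.2 ± 1.56), *SUN2* (30.5 ± 1.89), *LMNB1* (28.7 ± 2.30), *LBR* (18.3 ± 1.07) and *LEMD3* (4.72 ± 0.49). Lysates of *TMPO* and *SUN1* overlapped, as did those of *SUN2* and *LMNB1*. In Sen libraries *LMNA* (226 ± 20.8 CPM per kb), *BANF1* (127 ± 6.33) and *EMD* (68.1 ± 3.08) kept the first places. *SUN2* (33.1 ± 4.87), *SUN1* (27.3 ± 1.96) and *LMNB2* (27.2 ± 3.87) followed, and *SUN1* overlapped both of the others. *TMPO* (10.8 ± 1.49) came next, then *LEMD3* (6.14 ± 1.2) and *LBR* (6.03 ± 0.48), which overlapped, and *LMNB1* was last at 3.81 ± 0.41. The place of *TMPO* depends on the CDS taken as its length, 1362 bases in the MANE Select transcript against 2960 bases over all annotated CDS exons.

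Ribosome occupancy per CDS read of RNA-seq was ranked among 7466 genes in each of the 4 deeper lysates. *LMNB2* stood at the 37.1 and 31.5 percentile in Pro 2 and Pro 3 and at the 81.5 and 90.1 percentile in Sen 1 and Sen 3. *LMNA* went from the 81.0 and 77.6 to the 93.3 and 90.7 percentile. *LMNB2* thus moved from the lower to the upper part of the ranking, whereas *LMNA* was high in both states. *BANF1* was high in all 4 (84.0 to 97.8), *EMD* was near or below the middle (21.0 to 50.6), and *LMNB1* ranged from 58.3 in Sen 1 to 93.0 in Sen 3. *TMPO* and *LEMD3* were above the 90 percentile in both Pro lysates, and in Sen they stood at 89.8 and 38.1 for *TMPO* and at 75.4 and 52.9 for *LEMD3*. With 2 lysates per state these ranks are a description, and they are not adjusted for the GC content that moved with TE.

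The position of reads within the genes was examined next, since mRNA levels here include UTR reads. *LMNB2* drew 55.3% of its Pro and 56.7% of its Sen RNA-seq reads from the 3′ UTR (pooled over 3 libraries), against 24.9% and 27.7% for all genes, and 3 and 2 reads from the 5′ UTR. *LMNA* drew 83.2% and 82.1% from the CDS. The split of *LMNB2* thus hardly differed between the states, and with CDS reads alone its TE change was 0.98 (adjusted p = 0.000387, edgeR). *BANF1* drew 31.6% to 43.4% of its RNA-seq reads from the 5′ UTR in Pro and 27.5% to 31.7% in Sen, and its TE change turned from 0.14 to -0.16 with CDS reads alone (adjusted p = 0.739 and 0.714). Its unweighted mean log2 TE was 0.67 in Pro and 0.61 in Sen. *LMNB1* drew 9.83% to 14.6% from the 5′ UTR in Pro and 10.3% to 21.1% in Sen. In Ribo-seq, pooled CDS shares of the 10 genes were 92.9% to 100% in either state, while over all genes they were 94.9% in Pro and 86.3% in Sen.

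**Figure D5:**
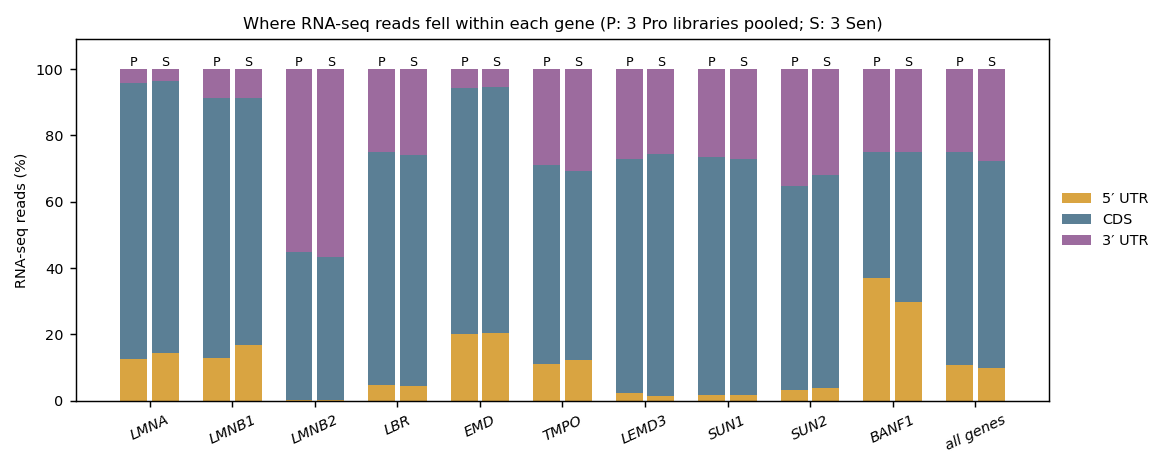
Share of RNA-seq reads in the 5′ UTR, CDS and 3′ UTR of each gene and of all genes together, in percent, with 3 libraries pooled per bar. *LMNB2* has more than 55% of its reads in the 3′ UTR in both states, and *BANF1* has the largest 5′ UTR share.

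Genes most like each B-type lamin were sought by the Pearson correlation over the 12 libraries of log2 CPM centred within each library type, among 1499 genes for *LMNB1* and 1498 for *LMNB2*. For *LMNB1* these were *SF3B3* (r = 0.989, mRNA -1.07, RPF -1.12), *DPYSL3* (r = 0.989, mRNA -1.99, RPF -2.06) and *ANLN*, the cytokinesis scaffold anillin (r = 0.989, mRNA -1.79, RPF -2.45). For *LMNB2* they were *HNRNPF* (r = 0.942, mRNA -0.87, RPF -0.37), *EHD2* (r = 0.932, mRNA -0.35, RPF -0.08) and *CNN2* (r = 0.920, mRNA -0.37, RPF -0.14). The values after r are log2 fold changes, and since both layers entered the choice, their likeness to the lamin is no finding. The points are the same 6 lysates in either library type, so most of each r is the contrast between the states.

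Other genes of the nuclear envelope were counted from 5 lists that were drawn up with earlier results of these data known. With library totals the median mRNA change of the first list below turned to -0.03 and that of the genes of envelope disassembly and resealing to -0.09, and the median RPF change turned to -0.02 in the first list and to -0.07 in that of the maturation enzymes. Among all genes tested, 36.6% rose and 37.0% fell in mRNA, and 27.5% rose and 26.9% fell in RPF. In TE, 4.88% rose and 4.48% fell. These shares are the background for the counts below. Of 14 tested genes among other inner nuclear membrane and lumenal proteins, 7 rose and 4 fell in mRNA (5 and 7 with library totals), with a median log2 fold change of 0.08. *TOR1B*, a lumenal AAA+ ATPase (1.17 ± 0.08), and the LEM-domain protein gene *ANKLE2* (0.63 ± 0.07) rose most, and *NEMP2* (-1.48 ± 0.20) and *NRM*, the nurim gene (-1.08 ± 0.14), fell most. In RPF, 4 of 11 rose and 1 fell (3 and 3 with library totals), and in TE 1 of 11 fell. Of the nesprins and related genes, 3 were tested in mRNA. *SYNE2*, encoding nesprin 2, fell by 1.91 ± 0.17, *SYNE3* fell by 0.33 ± 0.15, and *SYNE1* rose (0.49 ± 0.09). Of 2 tested in RPF, *SYNE3* fell (-1.26 ± 0.58) and *SYNE1* did not pass (-0.02 ± 0.19).

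Lamin maturation enzymes, which farnesylate, cleave and methylate prelamin A and the B-type lamins, supply the isoprenoid or bind prelamin, rose in 7 and fell in 1 of 9 tested genes at the mRNA level (5 and 1 with library totals), with a median of 0.35. *FDPS* (0.64 ± 0.07), farnesyl diphosphate synthase, and *ZMPSTE24* (0.59 ± 0.09), the prelamin A protease, rose most in mRNA. *RCE1*, another protease of this pathway, fell (-0.58 ± 0.14), and *GGPS1* was the next lowest of the genes called (0.18 ± 0.11). In RPF, 2 of 8 rose (*ICMT* and *FDPS*) and 1 fell (*GGPS1*), with a median of 0.07. With trends of GC content and length removed, 4 rose and 0 fell in RPF, with a median of 0.31. *ZMPSTE24* was at 0.01 ± 0.18 in RPF (adjusted p = 0.972). In TE, 1 of 8 fell (*GGPS1*).

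Genes of envelope disassembly and resealing changed both ways in mRNA, 11 up and 10 down of 23 tested (7 and 10 with library totals), with a median of 0.02. The mitotic kinase and cyclin genes *PLK1* (-2.04 ± 0.10) and *CCNB1* (-1.92 ± 0.09), both regulators of mitotic entry, fell most, and *LPIN1* (0.63 ± 0.09) and *PRKCD* (0.55 ± 0.10) rose most. In RPF 5 of 22 rose and 8 fell, and in TE 1 fell. Chromatin and signalling partners of the lamina rose in 7 and fell in 10 of 22 genes in mRNA (4 and 12 with library totals, median -0.07) and rose in 3 and fell in 10 of 20 in RPF (median -0.43, against 0.00 over all genes). *SMAD1* (-1.36 ± 0.14) and *PCNA* (-0.80 ± 0.08), the replication clamp, fell most in mRNA, and *AKTIP* (0.68 ± 0.10) and *IFFO1* (0.49 ± 0.09) rose most. In TE, 2 of 20 fell (*LMO7* and *BCLAF1*). With trends of GC content and length removed, the TE calls of these lists were lost, and 2 of the chromatin and signalling partners rose and 7 fell in RPF, with a median of -0.09.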

How the data were processed

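For each of the 12 libraries the authors deposited a table of reads per gene, split over the 5′ UTR, CDS, 3′ UTR and non-coding classes. What the authors deposited is best described by the unit expected count, made from aligned reads without scaling to depth, since 12.1% to 22.7% of nonzero Ribo-seq CDS values and 12.6% to 13.5% of RNA-seq ones were not whole. Per the labels, the submitters' processing notes name cutadapt 1.18, Bowtie 1.0.1, SAMtools 1.8 and DESeq2 1.22.2. The genome build, strand rule and handling of reads with several placements are not given in the sources used here. Gene symbols in the tables carry no coordinates, so positions and CDS lengths come from GENCODE v44 on GRCh37, and promoters from RefSeq.

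Groups and replicate numbers come from the sample titles. Counts were summed over regions and rounded to whole numbers, where the planned test had assumed plain counts. Genes were tested with edgeR 4.0.16 in R 4.3.3 (filterByExpr, TMM within each library type, quasi-likelihood test, Benjamini-Hochberg adjustment). The mRNA and RPF tests used the 6 libraries of their type. The TE test used all 12 libraries with the lysate as a block and tested the interaction of library type with state. In ratios, 0.5 was added to each count. Libraries of the same state and number come from the same lysate according to the extraction protocol, although their deviations from the group means correlated at only -0.05 to 0.06 across genes. Replicates of a state were not duplicates (chi-square over degrees of freedom from 1.34 to 10.5 for pairs of libraries). Alternatives used DESeq2 1.42.0, voom in limma 3.58.1, other scaling, other filters and fewer lysates. Scripts were tested on simulated data.

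The 10 genes and the lists were chosen with earlier results of these data known. By the naming rule, all 10 genes were named, in each list the 2 highest and 2 lowest mRNA fold changes among called genes, and for *LMNB1* and *LMNB2* the 3 genes most like each, taken from genes that averaged 100 RPF counts or more. Genes called in RPF or TE from lists of few such calls were named after their values were seen.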

Additional observations from a re-analysis of the deposited data

Results flagged for a closer look

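A signal outside the comparisons was seen for *TMPO-AS1*, the gene antisense to *TMPO*, whose reads were assigned to a non-coding class. Its reads numbered 78, 148 and 119 in the RNA-seq libraries of Pro 1, 2 and 3 and 42, 47 and 46 in those of Sen 1, 2 and 3. It was picked out because its highest library, with 148 reads, lies above the floor of 3 counts. No Sen library reached a Pro library, as for *TMPO* itself, and without a stated strand rule reads of the shared stretch cannot be assigned to either gene. Ribo-seq libraries held at most 2 of its reads.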

How the results depend on the processing

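Under the alternatives tried, the mRNA calls of *LMNB1*, *LMNB2*, *LBR*, *TMPO*, *EMD*, *SUN1* and *BANF1* kept their direction and stayed under the threshold. The RPF calls of *LMNB1* and *TMPO* did so wherever these genes were tested, and the filter of 10 counts in every library left both out. The number of the 10 genes called in mRNA was 8 or 9 throughout. In RPF, 5 were called with library totals or without the shallow lysates, 6 with GC content and length trends removed, and 0 with the filter of 10 counts in every library, which kept 1 of them. In TE, 0 were called with DESeq2, voom or that filter, 2 with library totals, 3 without the shallow lysates or with TMM factors over all 12 libraries, and 4 with no replicate block. Leaving out 1 lysate at a time gave 3 to 6 calls among the 10 in RPF and 1 to 3 in TE.

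Over all genes, RPF calls numbered 4088, but 1164 with DESeq2, 605 with the filter of 10 counts (828 genes tested) and 2681 to 4555 on leaving out 1 lysate. TE calls numbered 700, but 28 with DESeq2, 43 with voom, 440 with the filter of at least 1 read, 230 with that of 10 counts, 1197 without the shallow lysates, 243 with GC content and length trends removed, 231 at an adjusted p under 0.05, and 134 to 1154 on leaving out 1 lysate. The median TE change over all genes was 0.05 with TMM factors over all 12 libraries.

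Deviations of lysates of the 2 states that share a number correlated at r from -0.10 to 0.12 in RNA-seq and from 0.01 to 0.03 in Ribo-seq. RNA-seq and Ribo-seq of the same lysate, paired by the protocol, gave only -0.05 to 0.06. This check therefore cannot tell whether the number pairs lysates, and the labels give no such pairing. With the number as a replicate block, 9425 genes and 9 of the 10 were called in mRNA, and 2336 genes and 4 of the 10 in RPF. In the TE test, which has the lysate as its block, leaving the block out gave 1342 genes.

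Signs of changes that had not passed turned as follows. *SUN2* mRNA turned to -0.050 (library totals) and -0.0031 (GC and length), and ranged from -0.033 to 0.15 on leaving out 1 lysate. *SUN2* RPF turned to -0.0026 (DESeq2), -0.24 (replicate block) and -0.044 (GC and length), with a range of -0.26 to 0.54, and its TE to -0.20 (DESeq2) and -0.039 (GC and length), with -0.38 to 0.48. *EMD* RPF turned to 0.069 (DESeq2) and 0.16 (replicate block), with -0.36 to 0.25, and its TE to -0.091 (GC and length), with -0.12 to 0.46. *SUN1* RPF turned to -0.11 with library totals and with GC and length, with a range of -0.056 to 0.16. *LMNB2* RPF turned to 0.017 without the shallow lysates, with a range of -0.23 to 0.19, and *LMNA* RPF to -0.13 (GC and length). *BANF1* TE turned to -0.019 (DESeq2) and -0.16 (CDS reads alone), with -0.23 to 0.34, and *LMNB1* TE ranged from -0.74 to 0.15. The cause of these changes was not tested. Depth limits RPF and TE, since in Pro 1 and Sen 2 several of the 10 genes lie at or under 3 reads.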
